A study of Oryctolagus cuniculus with 15 samples.

Results

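Matrix metalloproteinases (MMPs) and their tissue inhibitors (TIMPs) were followed in rabbit corneal keratocytes grown in different collagen environments. The genes were chosen by name, with earlier results of these data known: MMP2, MMP9, MMP14, MMP16, MMP19, TIMP1, TIMP2 and TIMP3. All 8 were present among the 23428 protein-coding genes of the count table, and all 8 passed the filter on low counts in each comparison.

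MMPs are zinc-dependent endopeptidases that cut collagens and other matrix proteins; most are made as inactive precursors and act in the space next to the cell. TIMPs are small secreted proteins that block the active site of MMPs, and TIMP2 also takes part in the activation of the MMP2 precursor by MMP14 at the cell surface. In the corneal stroma this system is known for its role in matrix turnover during wound repair, where quiescent keratocytes become migratory or contractile cells.

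Bulk RNA-seq had been performed on first-passage keratocytes from New Zealand white rabbit eyes, kept in serum-free medium for 6 days with medium changes on days 2 and 5. In 2DC, cells grew on dishes with a thin coat of type I collagen. In 2DF, they grew on top of a polymerised matrix of fibrillar bovine type I collagen. In 3DF, 100000 cells were embedded in each such matrix, and in 3DF_50, 50000 cells. All of these cells spent 15 min in a medium with collagenase and hyaluronidase before lysis, whereas 2DC_L dishes were lysed directly. Cells from the matrices were also pelleted before lysis, whereas those in 2DC were lysed on the dish, so this step cannot be told apart from the matrix itself. Each condition had 3 libraries from separate experiments, and each library pooled several dishes or matrices. The age and number of the rabbits were not given in the sources used here.

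Library totals ran from 14626982 to 31804255 counts, and the 3DF_50 libraries were the shallowest (14626982 to 16472547). All 7 keratocyte markers had a mean of at least 1 FPKM (fragments per kilobase of gene, scaled to the library's size) in every condition, with a summed level between 20200 and 43100 FPKM. The highest sum was that of 3DF replicate 1, where the other 3DF libraries had 28500 and 28800. Over all genes, the counts of 3DF replicate 1 also differed from those of the other 3DF libraries by the largest chi-square per gene of any replicate pairs, 82.9 and 70.7. Of 7 measured corneal epithelium markers, 0 reached a mean of 1 FPKM in 2DC and 3 did in 3DF. Their summed level was 0.0947 to 0.944 FPKM in 2DC, 0.0719 to 0.874 in 2DC_L, 0.685 to 6.21 in 2DF, 7.74 to 12.7 in 3DF and 0.0786 to 5.92 in 3DF_50, and KRT12 had no counts in 2DC. The 4 myofibroblast markers summed to 5.18 to 7.64 FPKM in 2DC and 0.747 to 1.10 in 3DF. The 5 corneal endothelium markers summed to 394 to 525 FPKM in 2DC, 221 to 289 in 3DF and 171 to 195 in 3DF_50. The 5 vascular endothelium markers summed to 33.3 to 62.6 in 2DC, 117 to 119 in 3DF and 49.9 to 75.6 in 3DF_50. Most of this was KDR, with means of 46.0 FPKM in 2DC and 114 in 3DF. From 2DC to 3DF, CDH5 went from 2.23 to 3.50 and VWF from 0.0684 to 0.139. PECAM1 went the other way, from 0.0202 to 0.00395, as did TIE1, from 0.260 to 0.0475. The part of these cell types in the results below was not tested. In bulk RNA, fewer cells of a type and less RNA per cell cannot be told apart.

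Levels differed more between the 8 genes than between the culture conditions. MMP2 was the most abundant, with means between 775 and 2268 FPKM. TIMP1, TIMP2, TIMP3 and MMP14 lay between 64.3 and 651 FPKM in their condition means. MMP16, MMP19 and MMP9 were between 0.607 and 11.9 FPKM. An F test over all 5 conditions found a difference for 8 of 8 genes at an adjusted p of at most 0.05 (edgeR), as it did for 41.8% of all genes tested. The adjusted p ran from 3.38e-08 for MMP16 to 0.0111 for MMP9.

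**Figure D1:**
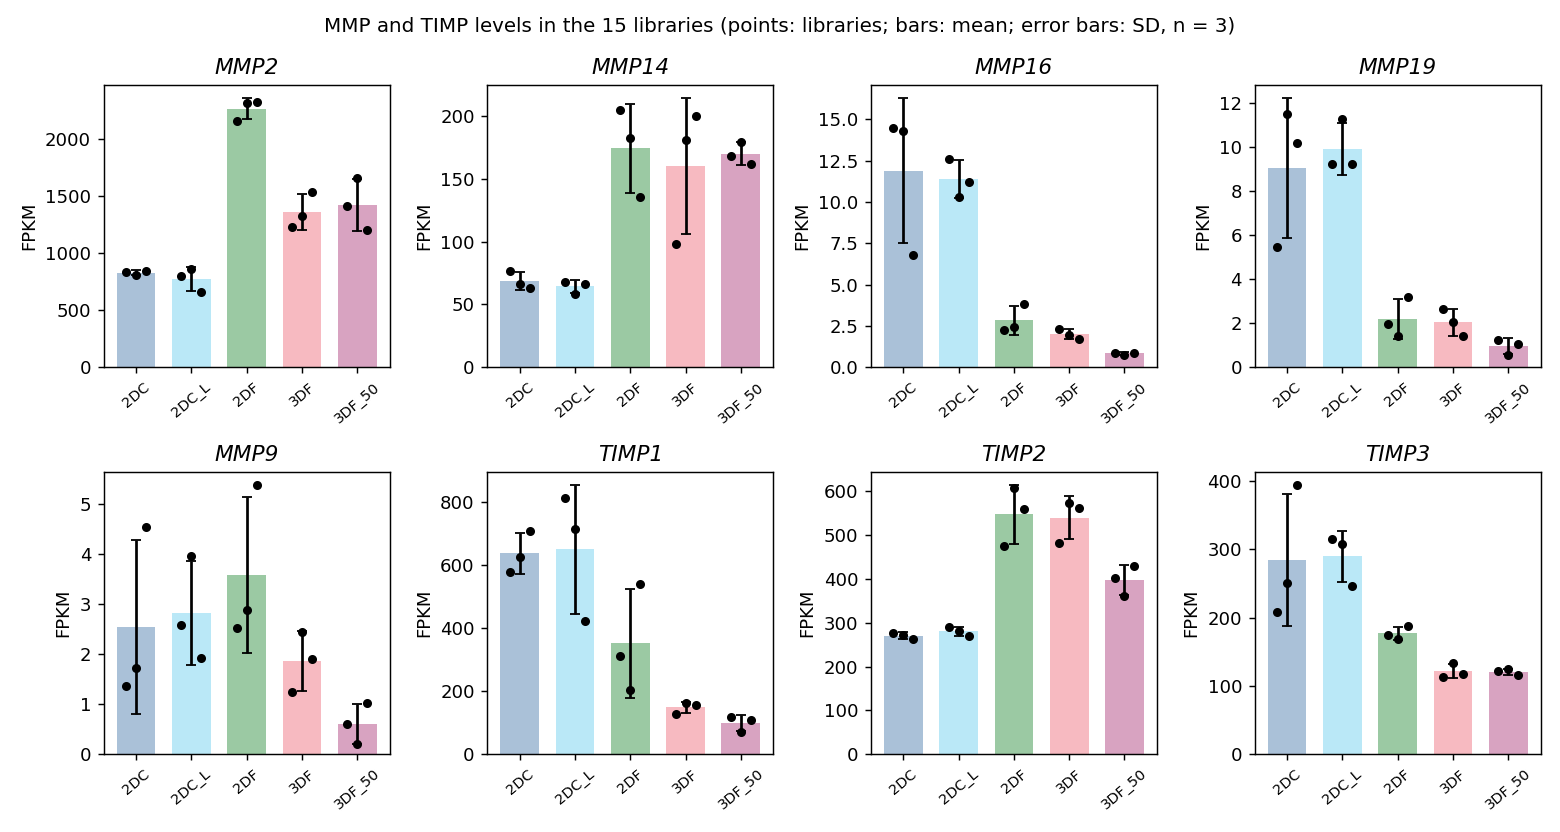
FPKM (y axes, linear, starting at 0) of the 8 genes in the 5 culture conditions (x axes); points are libraries, bars the mean and error bars the SD (n = 3). MMP2, MMP14 and TIMP2 were higher in the 3 fibrillar conditions than in both collagen-coated ones, whereas MMP16, MMP19 and TIMP3 were lower in all of their libraries.

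A differentially expressed gene (DEG) had an adjusted p of at most 0.05 and an absolute log2 fold change of at least 1, by edgeR's quasi-likelihood test on the counts of the 2 conditions compared. In 3DF vs. 2DC, the comparison of cells inside a matrix with cells on a coated dish, 5 of the 8 genes were DEGs, with 7.56% of all 13493 genes tested. MMP14 rose, and MMP16, MMP19, TIMP1 and TIMP3 fell. The count was 3 without 2DC replicate 3 (MMP16, MMP19 and TIMP1) and 6 without 3DF replicate 1, where TIMP2 was added. In 2DF vs. 2DC, which compares the top of a fibrillar matrix with a coat, 5 of 8 were DEGs against 4.96% of all genes. MMP2, MMP14 and TIMP2 rose there, and MMP16 and MMP19 fell. In 3DF vs. 2DF, both on fibrillar collagen, 1 of 8 was a DEG (TIMP1, lower in 3DF), against 3.78% of all genes. Library names carry a prefix, E2 to E10, that some libraries share. With that prefix as a term in a fit of all 5 conditions, 0 of these 5 genes were DEGs in 2DF vs. 2DC, with log2 fold changes of 1.11 for MMP2, 1.32 for MMP14, -2.10 for MMP16, -1.12 for MMP19 and 0.999 for TIMP2 and adjusted p from 0.19 to 0.5. TIMP1 in 3DF vs. 2DF was then at -1.74 (adjusted p = 0.308). Of all 14036 genes in that fit, 16 were DEGs in 2DF vs. 2DC and 4 in 3DF vs. 2DF. The 3 comparisons share libraries, so their values are given side by side and not as separate evidence. The study had already reported differences between these cultures for all 5 MMPs. The counts of the 8 genes beside those of all genes are therefore no test of the group.

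The median log2 fold change of the 8 genes was -0.84 in 3DF vs. 2DC and -0.08 in 2DF vs. 2DC, where all genes had medians of 0.01 and 0.00. FPKM ranges of both groups were apart for 7 of 8 genes in 3DF vs. 2DC and for 7 of 8 in 2DF vs. 2DC, where they were apart for 37.8% and 35.2% of all genes.

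**Figure D2:**
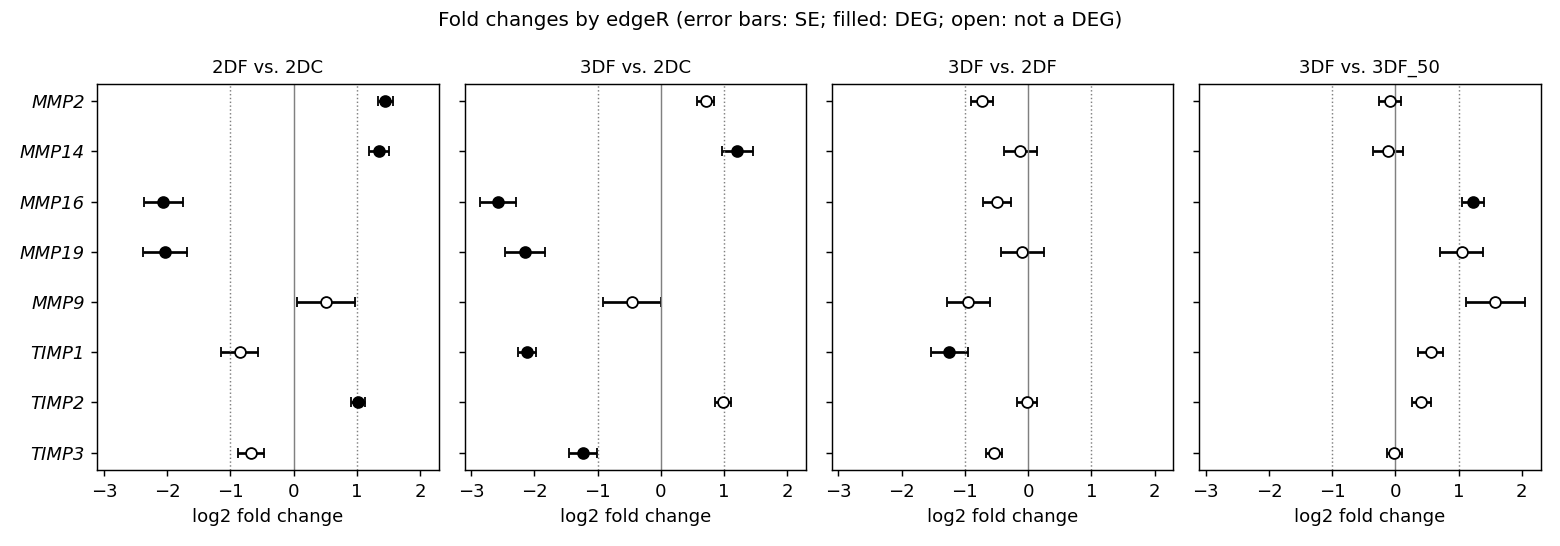
Log2 fold change (x axes) of each gene (y axis) in 4 comparisons by edgeR; error bars are SE, filled points are DEGs, and dotted lines mark the fold change threshold on either side of 0. MMP16 and MMP19 lay left of the threshold in both 2DF vs. 2DC and 3DF vs. 2DC, MMP14 lay right of it in both, and TIMP1 was the 1 DEG of 3DF vs. 2DF.

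The secreted gelatinase MMP2 (chromosome 5, 11717915 to 11743377, oryCun2) cleaves denatured and basement membrane collagens. Its level in the 2DC libraries was 838, 811 and 846 FPKM, with 804, 861 and 661 FPKM in 2DC_L. In 2DF it was 2163, 2317.5 and 2323.9 FPKM, in 3DF 1229, 1331 and 1537 FPKM, and in 3DF_50 1414, 1660.4 and 1206 FPKM. The 3 ranges of coated, embedded and on-top cultures did not overlap, and the 2DF libraries were the highest of all. MMP2 ranked 14 among the 17831 genes detected in 2DF by mean FPKM, 28 in 3DF and 51 in 2DC. In 2DF vs. 2DC it rose 2.74-fold (log2 fold change 1.45 ± 0.11 SE, adjusted p = 0.000226). In 3DF vs. 2DC the difference, 0.71 ± 0.14 on the log2 scale with an adjusted p of 0.0108, stayed under the fold change threshold. The difference in 3DF vs. 2DF, -0.73 ± 0.17 (adjusted p = 0.0353), did so too.

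MMP14 (chromosome 17, 43077378 to 43087282) is a membrane-anchored MMP that cuts fibrillar collagen at the cell surface and activates the MMP2 precursor. The 2DC libraries held 76.5, 66.6 and 62.8 FPKM, and the 2DC_L libraries 68.1, 58.2 and 66.5 FPKM. In 2DF the level was 205, 182 and 135 FPKM, in 3DF 98.3, 181 and 200.02 FPKM, and in 3DF_50 168, 179 and 162 FPKM. All 9 libraries from fibrillar matrices exceeded all 6 from coated dishes, and 3DF replicate 1 was the lowest of the 9. MMP14 rose 2.55-fold in 2DF vs. 2DC (log2 fold change 1.35 ± 0.16, adjusted p = 0.00112) and 2.31-fold in 3DF vs. 2DC (1.21 ± 0.25, adjusted p = 0.0131). The second call was lost without 2DC replicate 2 (1.19, adjusted p = 0.0612) or 2DC replicate 3 (1.16, adjusted p = 0.0529). Between 3DF and 2DF no difference was found (-0.12, 95% interval -0.69 to 0.45).

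MMP16 (chromosome 3, 103458136 to 103758339), another membrane-type MMP, moved the opposite way. Its level was 14.5, 14.3 and 6.82 FPKM in 2DC and 12.6, 10.3 and 11.2 FPKM in 2DC_L. The fibrillar cultures were at 2.26, 2.42 and 3.84 FPKM in 2DF, 2.35, 1.94 and 1.74 FPKM in 3DF, and 0.882, 0.763 and 0.888 FPKM in 3DF_50. No fibrillar library reached the lowest coated library, 2DC replicate 3. MMP16 fell in 3DF vs. 2DC, where it was 5.95-fold lower (log2 fold change -2.57 ± 0.29, adjusted p = 0.000802), and in 2DF vs. 2DC, where it was 4.17-fold lower (-2.06 ± 0.30, adjusted p = 0.00314). Between 3DF and 2DF the ranges overlapped (-0.49 ± 0.22, adjusted p = 0.227).

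Set against each other, the FPKM ratio of MMP14 to MMP16 within a library was 4.65 to 9.22 in 2DC and 5.40 to 5.95 in 2DC_L. It was 35.2 to 90.4 in 2DF, 41.9 to 115 in 3DF and 182 to 235 in 3DF_50. The ranges of coated and fibrillar cultures were far apart.

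MMP19 (chromosome 4, 39420867 to 39426594) is a secreted MMP with basement membrane proteins among its substrates. It was at 5.48, 11.5 and 10.2 FPKM in 2DC and 9.20, 11.3 and 9.24 FPKM in 2DC_L. Its level was 1.97, 1.40 and 3.20 FPKM in 2DF, 2.63, 2.07 and 1.42 FPKM in 3DF, and 1.25, 0.572 and 1.08 FPKM in 3DF_50. All 6 coated libraries were above all 9 fibrillar ones, and the lowest of the 6 was 2DC replicate 1. MMP19 fell in 2DF vs. 2DC (log2 fold change -2.03 ± 0.34, adjusted p = 0.00554) and in 3DF vs. 2DC (-2.15 ± 0.32, adjusted p = 0.00313). With the library name prefix in the fit, the value in 2DF vs. 2DC was -1.12 (adjusted p = 0.5). The levels in 3DF and 2DF overlapped, with a difference of -0.09 (95% interval -0.84 to 0.66).

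MMP9 (scaffold Un0027, 971824 to 978980), the other gelatinase, was scarce throughout. It had 1.37, 1.72 and 4.54 FPKM in 2DC, 2.59, 3.97 and 1.92 FPKM in 2DC_L and 2.52, 2.88 and 5.39 FPKM in 2DF. In 3DF it had 1.25, 2.44 and 1.91 FPKM, and in 3DF_50 0.601, 0.206 and 1.01 FPKM, the latter from only 25, 9 and 47 counts. The first 3 of these conditions overlapped with each other. 3DF overlapped with 2DC and 2DC_L and lay below 2DF, and 3DF_50 was below all of the rest. Neither 3DF vs. 2DC (-0.45 ± 0.46, adjusted p = 0.555) nor 2DF vs. 2DC (0.51 ± 0.46, adjusted p = 0.488) gave a DEG, and the 95% intervals reached from -1.50 to 0.60 and from -0.52 to 1.55. Without 2DC replicate 3, the highest 2DC library, the value in 3DF vs. 2DC was 0.27.

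Of the inhibitors, TIMP1 (chromosome X, 32653951 to 32658560) is a soluble protein that blocks secreted MMPs well and several membrane-type MMPs poorly. The level was 579, 627 and 709 FPKM in 2DC and 816, 714 and 422 FPKM in 2DC_L. It was 311, 204 and 541 FPKM in 2DF, 128, 162 and 155 FPKM in 3DF, and 118, 70.7 and 108 FPKM in 3DF_50. Embedded cultures held less TIMP1 than every other library, and the 2DF libraries were below all 2DC libraries but overlapped with 2DC_L, where replicate 3 was lower than 2DF replicate 3. TIMP1 fell in 3DF vs. 2DC, where it was 4.33-fold lower (log2 fold change -2.11 ± 0.15, adjusted p = 0.000159). In 2DF vs. 2DC the value was -0.85 ± 0.29 with an adjusted p of 0.0846, and it became a DEG without 2DF replicate 3 (-1.31, adjusted p = 0.00684). In 3DF vs. 2DF it fell by 1.24 ± 0.29 on the log2 scale (adjusted p = 0.0344). That call was lost without 2DF replicate 1 (-1.32, adjusted p = 0.0891), 2DF replicate 3 (-0.79, adjusted p = 0.0761), 3DF replicate 1 (-1.15, adjusted p = 0.0791) or 3DF replicate 3 (-1.27, adjusted p = 0.0727).

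TIMP2 (scaffold Un0367, 25563 to 36845) inhibits MMPs and bridges MMP14 and the MMP2 precursor. Its coefficient of variation was at most 12.2% in any condition. The level was 277, 271 and 264 FPKM in 2DC and 291, 280.4 and 270.05 FPKM in 2DC_L. It was 475, 606 and 561 FPKM in 2DF, 483, 574 and 561 FPKM in 3DF, and 401, 361 and 430.4 FPKM in 3DF_50. All fibrillar libraries were above all coated ones, and 3DF_50 was below both 2DF and 3DF. TIMP2 rose 2.03-fold in 2DF vs. 2DC (log2 fold change 1.02 ± 0.12, adjusted p = 0.000996), just past the fold change threshold. It dropped below that threshold without 2DC replicate 3 (0.999) or 2DF replicate 2 (0.94). In 3DF vs. 2DC the value was 0.98 ± 0.13 (adjusted p = 0.00162), just under it, and it passed without 3DF replicate 1 (1.06) or 2DC replicate 1 (1.00). The difference between 3DF and 2DF was -0.02 (95% interval -0.38 to 0.35).

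TIMP3 (chromosome 4, 88311789 to 88361387) binds to the extracellular matrix and blocks ADAM and ADAMTS proteases as well as MMPs. It was measured at 209, 250.4 and 394 FPKM in 2DC and 315, 307 and 247 FPKM in 2DC_L. Its level was 175, 168 and 188 FPKM in 2DF, 113, 133 and 118 FPKM in 3DF, and 121, 125 and 116 FPKM in 3DF_50. The order was coated above on-top above embedded, without overlap between these 3 classes, and 2DC replicate 3 was the highest library. TIMP3 fell in 3DF vs. 2DC (log2 fold change -1.24 ± 0.22, adjusted p = 0.00797), a call that needed 2DC replicate 3 (-0.92 without it, adjusted p = 0.00912). TIMP3 was no DEG in 2DF vs. 2DC (-0.68 ± 0.20, adjusted p = 0.0562) or 3DF vs. 2DF (-0.54 ± 0.13, adjusted p = 0.0317). FPKM for TIMP3 used a length of 636 bases, against 888 for TIMP1 and 3064 for TIMP2, and levels set between these genes rest on those lengths.

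TIMP1 overlaps SYN1 and TIMP3 overlaps SYN3 on the opposite strand in the deposited annotation, and whether the counting used strand was not given in the sources used here. Each of these neighbours had 1 to 17 counts per library, where TIMP1 had at least 1165 and TIMP3 at least 1359.

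The inhibitor in the majority changed with the culture. TIMP1 made up 53.6% ± 1.48 (SD, n = 3) of the summed FPKM of the 3 TIMPs in 2DC and 52.4% ± 6.56 in 2DC_L, and TIMP2 23.0% ± 3.43 and 23.6% ± 4.51. In 3DF the shares were 18.3% ± 0.563 for TIMP1 and 66.7% ± 0.628 for TIMP2, and in 3DF_50 15.9% ± 2.90 and 64.5% ± 1.59. The 2DF libraries were intermediate and spread widely, with 20.8% to 42.0% for TIMP1 and 43.5% to 62.0% for TIMP2. TIMP1 thus exceeded TIMP2 in every coated library and TIMP2 exceeded TIMP1 in every fibrillar one.

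**Figure D3:**
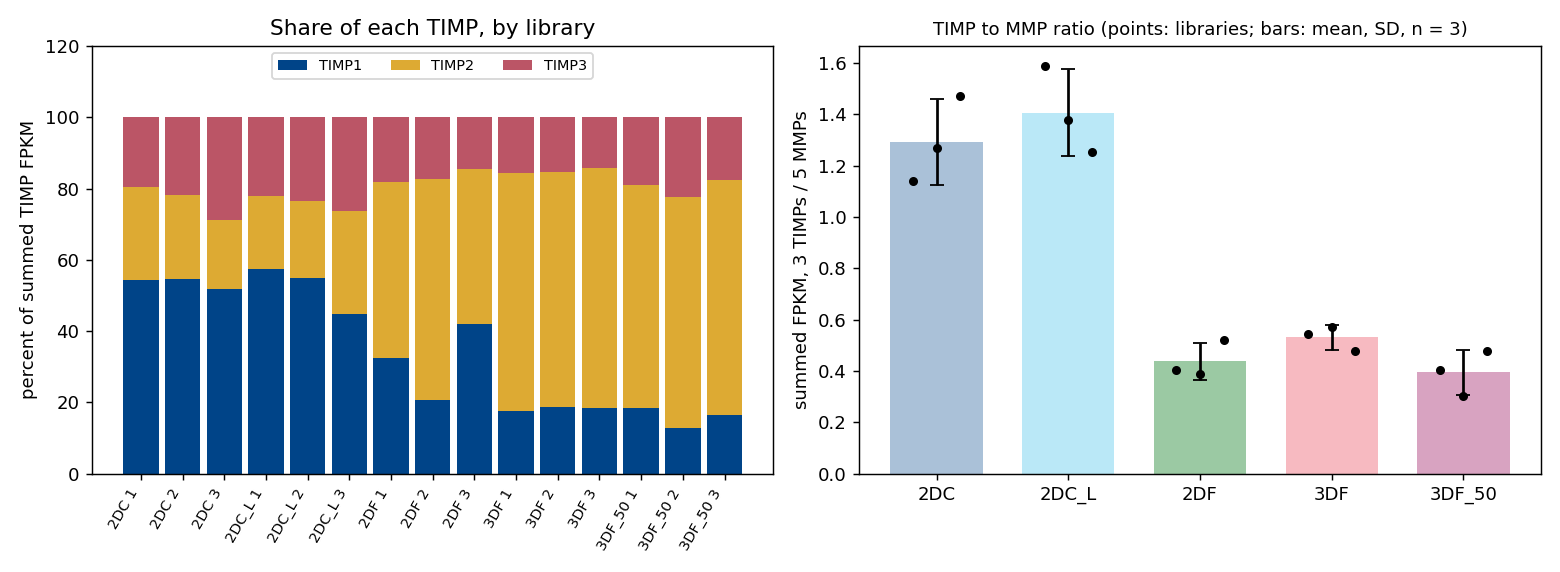
Left, the percent of summed TIMP FPKM (y axis) that each TIMP made up in each of the 15 libraries (x axis); right, summed FPKM of 3 TIMPs over that of 5 MMPs (y axis, linear from 0) by condition, with points for libraries, bars for the mean and error bars for the SD (n = 3). TIMP1 was the largest share in the 6 collagen-coated libraries and TIMP2 in the 9 fibrillar ones, and the ratio on the right was at least 1.14 in all coated libraries and at most 0.572 in all fibrillar ones.

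The summed FPKM of the 3 TIMPs was 1.29 ± 0.167 times that of the 5 MMPs in 2DC and 1.41 ± 0.168 times in 2DC_L. It was 0.439 ± 0.0719 times in 2DF, 0.531 ± 0.0480 in 3DF and 0.395 ± 0.0880 in 3DF_50. Libraries ran from 1.14 to 1.59 in the coated cultures and from 0.302 to 0.572 in the fibrillar ones. MMP2 supplied 87.7% to 94.0% of the summed MMP level in every library. The ratio of MMP2 to TIMP2 was 2.99 to 3.21 in 2DC, 2.45 to 3.07 in 2DC_L, 3.82 to 4.56 in 2DF, 2.32 to 2.74 in 3DF and 2.80 to 4.60 in 3DF_50, so that 2DC_L overlapped with 3DF, and 3DF_50 with all but 3DF. The ratio of MMP14 to TIMP2 overlapped between 2DC (0.238 to 0.276), 2DC_L (0.208 to 0.246), 2DF (0.242 to 0.431) and 3DF (0.203 to 0.357). In 3DF_50 it was 0.375 to 0.497, above every library of 2DC, 2DC_L and 3DF. These are ratios of RNA levels, described without a test.

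The number of cells in the matrix differed in 3DF vs. 3DF_50. MMP16 was the 1 DEG among the 8 genes, with 0.452% of all genes tested. It was 2.34-fold higher at 100000 cells (log2 fold change 1.22 ± 0.17, adjusted p = 0.0318), and the call was lost without 3DF_50 replicate 1 (1.25, adjusted p = 0.116), 3DF_50 replicate 2 (1.15, adjusted p = 0.159), 3DF_50 replicate 3 (1.25, adjusted p = 0.0515) or 3DF replicate 3 (1.32, adjusted p = 0.0504). Of all genes, 0 were called without 3DF_50 replicate 1 or 3DF_50 replicate 2, 4 without 3DF replicate 3 and 61 without 3DF_50 replicate 3. FPKM ranges were apart for 5 of 8 genes, all higher in 3DF (MMP16, MMP19, MMP9, TIMP1 and TIMP2), where they were apart for 29.4% of all genes and higher in 3DF for 16.8%. The differences of MMP19 (1.05 ± 0.34, adjusted p = 0.152), MMP9 (1.58 ± 0.47, adjusted p = 0.133), TIMP1 (0.56 ± 0.19, adjusted p = 0.165) and TIMP2 (0.41 ± 0.15, adjusted p = 0.175) did not pass. MMP9 was a DEG by DESeq2 (1.59, adjusted p = 0.0189). For MMP2, MMP14 and TIMP3 the 95% intervals were -0.48 to 0.30, -0.63 to 0.41 and -0.28 to 0.25.

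The effect of the enzyme medium was compared in 2DC vs. 2DC_L, which matters for genes of matrix breakdown. By edgeR 0 of 8 genes were DEGs, 0 had an unadjusted p under 0.05 and 0 had FPKM ranges apart, and DESeq2 also called 0. Of all genes, 0.265% were DEGs and 12.8% had ranges apart. The log2 fold changes lay between -0.17 for MMP9 and 0.10 for MMP2. The narrowest 95% interval was that of TIMP2 (-0.24 to 0.14) and the widest that of MMP9 (-1.22 to 0.88), which for MMP9 reaches past the fold change threshold. In the pairs with prefix E2 and E3, the FPKM ratio of 2DC to 2DC_L was 0.531 and 0.432 for MMP9. It was 0.709 and 0.877 for TIMP1, 0.662 and 0.815 for TIMP3, and 0.952 and 0.968 for TIMP2. For MMP14 it was 1.12 and 1.14, for MMP16 1.15 and 1.39, for MMP2 1.04 and 0.942, and for MMP19 0.595 and 1.02. These ratios were not tested.

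The remaining comparisons reuse the same libraries. In 3DF_50 vs. 2DC, 6 of 8 genes were DEGs (11.6% of all genes): MMP14 rose (1.31 ± 0.10), and MMP16 (-3.81 ± 0.29), MMP19 (-3.22 ± 0.34), MMP9 (-2.05 ± 0.59), TIMP1 (-2.69 ± 0.18) and TIMP3 (-1.24 ± 0.20) fell. The call of MMP9 was lost without 2DC replicate 3 (-1.33), 3DF_50 replicate 1 (-2.04) or 3DF_50 replicate 2 (-1.64), and that of TIMP3 without 2DC replicate 3 (-0.93). With 2DC_L in place of 2DC, the same 6 were DEGs in 3DF_50 (13.5% of all genes). MMP14, MMP16, MMP19, TIMP1 and TIMP3 were DEGs in 3DF vs. 2DC_L (10.2%), and MMP2, MMP14, MMP16 and MMP19 in 2DF vs. 2DC_L (7.39%). TIMP2 in 2DF vs. 2DC_L was at 0.97 ± 0.13, just under the threshold. In 3DF_50 vs. 2DF, MMP9 (-2.53 ± 0.46), MMP16 (-1.73 ± 0.20) and TIMP1 (-1.81 ± 0.31) fell (4.45% of all genes). MMP19 was no DEG there by edgeR (-1.16 ± 0.37, adjusted p = 0.0664), but DESeq2 called it (-1.18, adjusted p = 0.0216). It was also called by edgeR with no filter (-1.16, adjusted p = 0.0261) and with all 5 conditions in the fit (-1.18, adjusted p = 0.0455).

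Some conditions share a library name prefix, which gives pairs of 1 library per condition and no test. In the pair with prefix E6, 3DF replicate 1 and 2DC replicate 3, the FPKM ratio was 1.56 for MMP14, 0.344 for MMP16, 0.259 for MMP19, 0.180 for TIMP1 and 0.287 for TIMP3. No prefix joins 2DF with 2DC, 2DC_L or 3DF, so these comparisons have no value within a prefix. Prefix E5 joins 2DF replicate 1 with 3DF_50 replicate 2, and through this pair the fit with the prefix as a term sets 2DF against the other conditions.

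Other genes of pericellular proteolysis were read from 5 lists. Of 14 other MMPs in the table, DESeq2 called 3 in 3DF vs. 2DC. By edgeR 9 passed the filter in that comparison and 1 was a DEG, where 7.56% of all genes were. This was the interstitial collagenase MMP1, which rose from 0, 0.0931 and 0.116 FPKM in 2DC to 0.491, 0.906 and 1.52 FPKM in 3DF (log2 fold change 3.84 ± 0.76, adjusted p = 0.0113). The 2DC libraries held 0, 4 and 5 counts of MMP1. In 2DC_L it was at 0.124, 0.127 and 0.929 FPKM, which overlapped with 3DF, and it was no DEG in 3DF vs. 2DC_L (1.46 ± 0.74, adjusted p = 0.183). MMP1 was at 0.263, 1.57 and 0.0589 FPKM in 2DF and at 0.174, 0.525 and 3.08 FPKM in 3DF_50. Both of these overlapped with 3DF. The call in 3DF vs. 2DC was lost with the library name prefix in the fit (1.60, adjusted p = 0.186) and with limma on log2(FPKM + 1) (0.85). In 2DF vs. 2DC, 7 were tested by edgeR and MMP11 alone was a DEG, beside 4.96% of all genes. MMP11 rose (1.25 ± 0.16, adjusted p = 0.00178) from a mean of 5.40 to 12.8 FPKM. DESeq2 called 2 other MMPs of the list in that comparison, MMP11 included or not. In 3DF vs. 2DF 0 of 8 were DEGs, beside 3.78% of all genes, with 1 at an unadjusted p under 0.05 and 0 by DESeq2. MMP13, a collagenase as well, had at most 6 counts in any library.

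Of 7 other inhibitors and modulators tested in 3DF vs. 2DC, 1 was a DEG, beside 7.56% of all genes. SPOCK3, a testican proteoglycan, rose from a mean of 0.584 to 1.43 FPKM (1.29 ± 0.36, adjusted p = 0.0448), a call kept in only 1 of 6 fits that left out 1 library, the one without 3DF replicate 3. In 3DF vs. 2DF 1 of 7 was a DEG, beside 3.78% of all genes. This was SPOCK2, which fell (-1.19 ± 0.23, adjusted p = 0.0148) and lost the call without 2DF replicate 1 (-1.13) or 2DF replicate 2 (-1.18). RECK, a membrane-anchored MMP inhibitor, had 129 ± 10.4 FPKM on coated dishes (2DC), 110.4 ± 11.8 in 2DF and 65.9 ± 4.70 in 3DF.

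In the plasminogen list, 1 of 7 tested genes was a DEG in 3DF vs. 2DC and 1 of 7 in 2DF vs. 2DC, beside 7.56% and 4.96% of all genes. S100A10, part of a plasminogen receptor, fell in 3DF vs. 2DC (-1.37 ± 0.23, adjusted p = 0.00593), from 2293 ± 15.5 to 891 ± 288 FPKM. It also fell in 3DF vs. 2DF (-1.04 ± 0.22, adjusted p = 0.0224), where the call was kept only without 3DF replicate 2 or 3DF replicate 3. SERPINF2, which blocks plasmin, rose in 2DF vs. 2DC from 23, 6 and 8 counts to 24, 36 and 27 counts (1.76 ± 0.44, adjusted p = 0.0311), and kept the call in 1 of 6 fits that left out 1 library.

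Among genes of MMP activation, docking and clearance, 1 of 10 was a DEG in 3DF vs. 2DC, 1 in 2DF vs. 2DC and 0 in 3DF vs. 2DF (3 at an unadjusted p under 0.05, 0 by DESeq2), beside 7.56%, 4.96% and 3.78% of all genes. The proprotein convertase PCSK6 fell in 3DF vs. 2DC (-1.18 ± 0.29, adjusted p = 0.0265), with means of 0.488 and 0.216 FPKM and the call kept in 1 of 6 fits that left out 1 library. THBS2, a matricellular protein that takes part in the clearance of MMP2, rose in 2DF vs. 2DC (1.38 ± 0.11, adjusted p = 0.000247). Its level was 164, 163 and 144 FPKM in 2DC, 379, 437 and 405 FPKM in 2DF and 231, 301 and 254 FPKM in 3DF.

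Among collagen receptors and genes of collagen uptake and lysosomal breakdown, 2 of 9 were DEGs in 3DF vs. 2DC, 1 of 9 in 2DF vs. 2DC and 2 of 8 in 3DF vs. 2DF, all of them lower in the first-named condition. The shares of all genes were 7.56%, 4.96% and 3.78%. FAP, a cell-surface protease that trims cleaved collagen, was at 225, 217 and 202 FPKM in 2DC, 195, 133 and 241 FPKM in 2DF, and 95.4, 66.1 and 66.5 FPKM in 3DF. It fell in 3DF vs. 2DC (-1.51 ± 0.16, adjusted p = 0.000683) and in 3DF vs. 2DF (-1.31 ± 0.23, adjusted p = 0.00907). The lysosomal collagenase CTSK fell in 3DF vs. 2DF (-1.08 ± 0.17, adjusted p = 0.00479), from 300.1 ± 52.0 to 141 ± 18.3 FPKM, and dropped under the fold change threshold without 2DF replicate 1 (-0.94) or 3DF replicate 1 (-0.98). DPP4 fell in 3DF vs. 2DC (-2.60 ± 0.39, adjusted p = 0.00353) and in 2DF vs. 2DC (-1.93 ± 0.46, adjusted p = 0.0246) on 3 to 45 counts per library. The latter call was kept in 2 of 6 fits that left out 1 library, those without 2DC replicate 3 or 2DF replicate 3.

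With the library name prefix in the fit, none of the list genes kept its call in 2DF vs. 2DC (MMP11 0.92, SERPINF2 2.25, THBS2 1.2 and DPP4 -1.67) or 3DF vs. 2DF (SPOCK2 -0.41, S100A10 -1.18, CTSK -1.15 and FAP -1.78). In 3DF vs. 2DC, MMP1 and PCSK6 (-1.18, adjusted p = 0.0781) lost it.

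**Figure D4:**
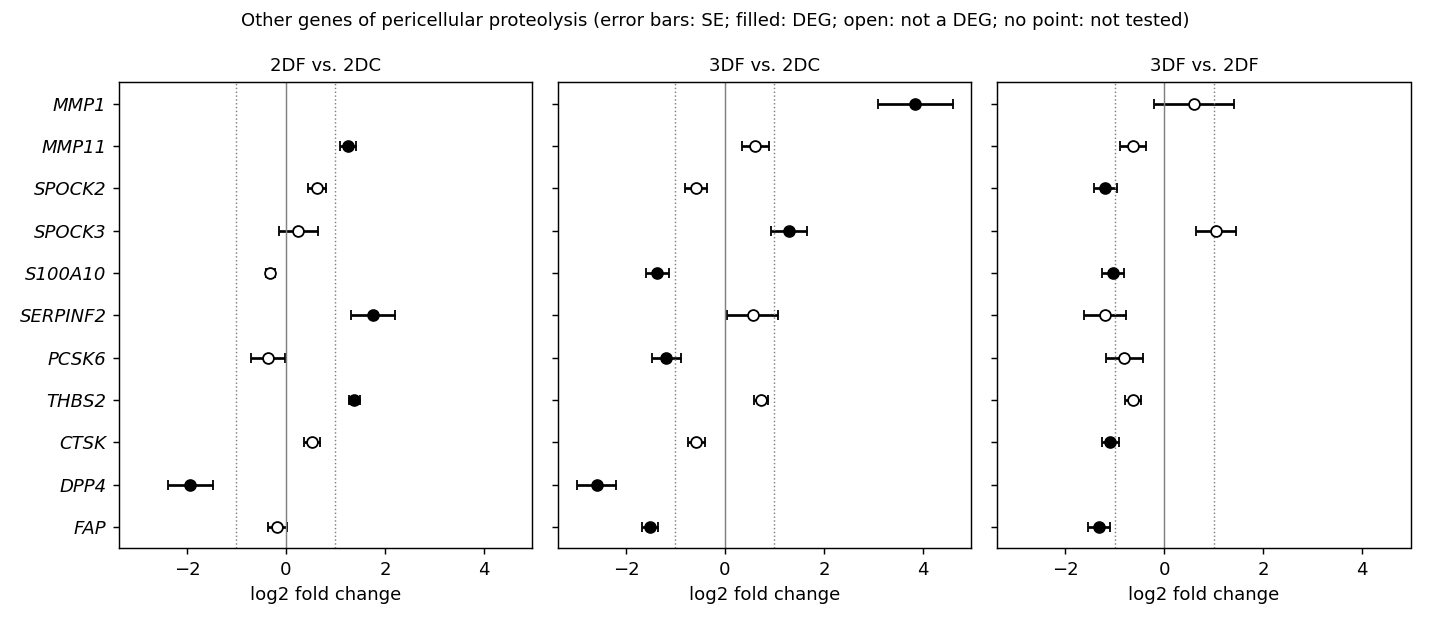
Log2 fold change (x axes) by edgeR of the list genes that were DEGs in at least 1 of 3 comparisons; error bars are SE, filled points are DEGs, and a gene without a point was not tested in that comparison. MMP1 lay farthest to the right in 3DF vs. 2DC, with a log2 fold change of 3.84, and DPP4, FAP and S100A10 lay to the left.

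For each of the 8 genes, the 2 genes with the most similar profile were sought among 9689 others, by the root mean square difference of centred log2(FPKM + 1) over the 15 libraries. For MMP2 these were THBS2 (difference 0.189, where the profile of MMP2 itself had a root mean square of 0.582) and RADIL (0.200). CD276 (0.203) and VASN (0.214) came closest to MMP14, and PLBD2 (0.115) and RAB31 (0.140) to TIMP2. TIMP3 was closest to SREBF2 (0.144) and QPCTL (0.169), and GJB5 (0.344) was among the 2 closest to TIMP1. MMP16 had C2H2orf40 (0.286) and LPAR4 (0.298), MMP19 had VGLL3 (0.290) and ADAMTSL1 (0.294), and MMP9 had GXYLT2 (0.329) and LMO7 (0.338). The points share libraries and depth, so these differences are a description only.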

How the data were processed

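RNA-seq counts and FPKM of 15 libraries were used, with condition and replicate number read from the library labels. The counts deposited by the authors are unnormalized reads per gene, aligned to oryCun2 with HISAT2 2.0.5 and counted by featureCounts 1.5.0-p3. The authors' deposited FPKM are the same counts per kilobase of gene, scaled by a library size set by the authors, which was 0.921 to 1.24 times the sum of counts in the table. FPKM served for levels, ratios and profiles only.

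Genes with enough counts (filterByExpr, min.count 10) in the 2 conditions compared were tested with edgeR 4.0.16 (TMM, glmQLFit, glmQLFTest, two-sided), with Benjamini-Hochberg adjustment over all genes tested. SE was the absolute log2 fold change over the square root of F, and 95% intervals used the fit's degrees of freedom. The study itself used DESeq2 1.20.0 with the same thresholds; DESeq2 1.42.0 was an alternative here. The other alternatives were DESeq2's size factors in edgeR, library size alone, no filter, a mean CPM of at least 1, a fit of all 5 conditions, that fit with the library name prefix as a term, a block for the replicate number, limma 3.58.1 on FPKM in log2 with a pseudocount of 1 or 0.1, and leaving out each library. The edgeR, DESeq2 and limma steps were tested on simulated data.

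The members and gene lists were chosen with earlier results of these data known. The 8 members are all named, list genes are named when DEGs in 3DF vs. 2DC, 2DF vs. 2DC or 3DF vs. 2DF or when below the filter (RECK and TIMP4 were named after their values were seen), and 2 genes per member by profile. Listed genes not analysed here were MMP8, MMP23B, MMP27, A2M, TFPI2, CTSL, KRT14, ITGAM and CNN1, and some genes that the lists or the profile rule would name are not reported here. Depth was 14626982 to 31804255 counts per library, and FPKM of scarce genes such as MMP9 (9 to 264 counts) carry the larger counting error. No sequence was read.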

Additional observations from a re-analysis of the deposited data

How the results depend on the processing

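Of 36 DEG calls of the 8 genes over 10 comparisons, none changed direction under any alternative, and all 36 were kept with DESeq2, DESeq2's size factors in edgeR, no filter, a mean CPM of at least 1 and all 5 conditions in the fit. Library size alone moved the median over all genes, on the log2 scale, from 0.01 to 0.19 in 3DF vs. 2DC, from 0.00 to 0.11 in 2DF vs. 2DC and from 0.01 to 0.36 in 3DF_50 vs. 2DC; TIMP3 then lost its call in 3DF_50 vs. 2DC (-0.90) and vs. 2DC_L (-0.91), while TIMP2 gained it in 3DF vs. 2DC (1.16), 3DF vs. 2DC_L (1.11) and 2DF vs. 2DC_L (1.07), and MMP2 in 3DF_50 vs. 2DC (1.14) and vs. 2DC_L (1.24). A term for the library name prefix kept 21 of 36 calls: the counts were 0 in 2DF vs. 2DC, 0 in 3DF vs. 2DF, 0 in 3DF vs. 3DF_50, 0 in 2DF vs. 2DC_L and 1 in 3DF_50 vs. 2DF, where 16, 4, 10, 87 and 236 of all 14036 genes were called. Among the lost calls, MMP16 in 3DF vs. 3DF_50 was at 1.57 and TIMP1 in 3DF vs. 2DF at -1.74, MMP2, MMP14, MMP16 and MMP19 in 2DF vs. 2DC_L were at 1.19, 1.60, -1.99 and -1.43, MMP9 and MMP16 in 3DF_50 vs. 2DF at -3.61 and -1.58, MMP9 in 3DF_50 vs. 2DC at -1.61 and MMP14 in 3DF vs. 2DC at 0.98. Only E5 joins 2DF to another condition, which leaves that fit little to set 2DF by. With limma on log2(FPKM + 1) and log2(FPKM + 0.1), the counts were 0 in 3DF vs. 2DF and 0 in 3DF vs. 3DF_50, with TIMP1 at -1.13 and -1.14 in the former and MMP16 at 0.70 and 1.15 in the latter. Of all genes, limma called 268 and 417 in the former and 6 and 16 in the latter, where DESeq2 called 2 of the 8. Over the fits that left out 1 library, the counts ran from 3 to 6 in 3DF vs. 2DC, from 4 to 6 in 2DF vs. 2DC, from 0 to 1 in 3DF vs. 2DF and from 0 to 1 in 3DF vs. 3DF_50. In those fits 339 to 520 of all genes were called in 3DF vs. 2DF and 0 to 77 in 3DF vs. 3DF_50. Where no cause is named, the cause was not tested.

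Same-numbered libraries were treated as unpaired, since in none of the 10 comparisons did all 3 numbers give correlated deviations above 0.1. This rule cannot exclude that some libraries were paired. In 3DF vs. 2DC the correlations were -0.02, 0.11 and -0.01. In 2DC vs. 2DC_L, where numbers 1 and 2 share the prefixes E2 and E3, they were 0.323, 0.0676 and 0.124. A fit with the replicate block changed none of the 36 calls, and 4 genes were DEGs in 3DF_50 vs. 2DF with it, where 3 were without it (MMP19 added, -1.15). Of the list genes, SERPINF2 (1.83, adjusted p = 0.0525) and DPP4 (-1.93, adjusted p = 0.0561) in 2DF vs. 2DC and PCSK6 in 3DF vs. 2DC (-1.17, adjusted p = 0.0508) lost their calls by edgeR with the block.

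None of the values that changed sign was called. With the replicate block or limma (pseudocounts 1 and 0.1), MMP16 in 2DC vs. 2DC_L was at -0.0026, -0.00557 and -0.0126, and TIMP1 at 0.0173, 0.0213 and 0.0214. TIMP3 in 3DF vs. 3DF_50 was at 0.00906 with all 5 conditions and 0.00899 and 0.00904 with limma. With library size alone, MMP14 in 3DF_50 vs. 2DF was at 0.199 and TIMP2 in 3DF vs. 2DF at 0.0406. With the prefix term, MMP2 in 3DF vs. 3DF_50 was at 0.0353, TIMP2 in 2DC vs. 2DC_L at 0.00029, MMP1 in 3DF vs. 2DF at -0.454, and SPOCK2, PCSK6 and FAP in 2DF vs. 2DC at -0.451, 0.328 and 0.406. Over the fits without 1 library, 2DC vs. 2DC_L ranged from -0.0064 to 0.184 for MMP2, -0.892 to 0.158 for MMP9, -0.109 to 0.342 for MMP16, -0.352 to 0.121 for MMP19, -0.267 to 0.167 for TIMP1 and -0.338 to 0.147 for TIMP3. In 3DF vs. 3DF_50 the ranges were -0.213 to 0.0324 for MMP2, -0.306 to 0.143 for MMP14 and -0.084 to 0.0375 for TIMP3. In 3DF vs. 2DF they were -0.312 to 0.132 for MMP14, -0.329 to 0.286 for MMP19 and -0.11 to 0.0646 for TIMP2. The others were -0.756 to 0.274 for MMP9 in 3DF vs. 2DC, -0.0739 to 0.67 for MMP9 in 2DF vs. 2DC_L, -0.178 to 0.101 for MMP14 in 3DF_50 vs. 2DF, and -0.384 to 0.0274 for FAP in 2DF vs. 2DC.

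With 3 libraries per condition the fold change thresholds were not reached evenly: TIMP2, TIMP3 and MMP14 sat near them. Depth limits MMP9, MMP1, DPP4 and SERPINF2, which rest on few counts. RNA levels say nothing of precursor activation, secretion or inhibitor binding.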

Other observations

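MMP12, the macrophage elastase, was a listed MMP that fell under the filter in 2 of the main comparisons, and it was picked for its values. By edgeR, MMP12 was no DEG in 3DF vs. 2DC. It had 11, 39 and 130 counts in the 2DC libraries and 24, 49 and 76 in 2DC_L, against 0, 7 and 0 in 2DF, 21, 2 and 8 in 3DF and 0, 0 and 5 in 3DF_50. In FPKM, 2DC replicate 1 (0.211) and 2DC_L replicate 1 (0.468) were below 3DF replicate 1 (0.471), and 2DC replicate 1 was also below 2DF replicate 2 and 3DF replicate 3 (0.223 in both), so coated and fibrillar libraries overlapped. Leukocyte markers, of which 6 were measured, summed to 2.49 to 5.13 FPKM in 2DC, 2.21 to 4.04 in 2DC_L and 3.80 to 8.42 in 2DF. The sums were 2.64 to 3.27 in 3DF and 3.68 to 4.31 in 3DF_50. CD68 was the largest part. From 2DC to 2DF the means of CD68, CD74, CSF1R and CD3E rose, and those of PTPRC and CD14 fell. PTPRC had 2, 3 and 14 counts in 2DC, 2, 8 and 12 in 2DC_L and 0 in each 2DF library. It had 7, 1 and 0 in 3DF and 0, 0 and 6 in 3DF_50. The part of leukocytes in the level of MMP12 was not tested.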
